A study of Mus musculus with 2 samples.

Results

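The neutrophils of the mouse mitral valve were 55 of 4313 cells in single-cell RNA-Seq of 2 libraries, 1 from WT and 1 from mgR mice. Members were chosen by their own UMI counts (a UMI is 1 tagged RNA molecule). A cell needed at least 10 UMIs of S100a8 and S100a9 together, at least 1 UMI of Csf3r, Retnlg or Cxcr2, fewer than 5 of C1qa, C1qb and C1qc together and fewer than 5 of Col1a2 and Col3a1 together, after the study's limits of 200 to 5000 genes and at most 10% mitochondrial UMIs. In the WT library 17 of 875 cells met these limits, and in the mgR library 38 of 3438. No barcode outside the limits on genes and mitochondrial UMIs met the rest of the rule.

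WT mice were Fbn1+/+, and mgR mice were homozygous for Fbn1 mgR, a hypomorphic allele with an inserted cassette that lowers the amount of fibrillin-1 without loss of coding sequence. All mice were 12 weeks old, on a C57BL/6J background, and untreated. Cells were freed from the leaflets with 2 enzymes, collagenase A and elastase, and those that passed a viability dye were captured with the 10x Genomics 3′ v3 chemistry. The barcodes carry no label of the animal they came from, and with 1 library per genotype every difference below compares 2 libraries and has no replicate check. Intervals are 95% and cover counting error only.

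Neutrophils are short-lived granulocytes made in bone marrow under the growth factor G-CSF and released to the blood, from where they follow chemokines into injured tissue. Their granules are filled in a fixed order during maturation, and the RNAs for the first granules are lost before the cell leaves the marrow. In tissue they release proteases, oxidants and interleukin-1. The study followed leukocytes, integrins and mTOR signaling in the thickened leaflets of mgR mice.

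Depth was 5381844 UMIs in the WT and 28215539 in the mgR library, with medians of 5033 and 7370 UMIs per kept cell. Neutrophils were shallower, at medians of 2297 UMIs in WT and 1930.5 in mgR. The study's methods state that male mice were used for comparisons, but 28.1% of WT and 60.8% of mgR cells carried UMIs of Xist and none of 4 Y-linked genes, while 38.5% and 21.1% carried the reverse. Among neutrophils, Xist without Y-linked UMIs was seen in 0 WT and 3 mgR cells, the reverse in 5 and 10, both in 1 mgR cell, and neither in 12 and 24. The mix of Xist and Y-linked cells therefore differed between the libraries and cannot be told apart from genotype. Fbn1 itself had 0 UMIs in WT and 4 in mgR neutrophils. In fibroblast barcodes it was at 191 CPM (UMIs scaled to a total of 1000000) in WT and 149 CPM in mgR, the lower of the 2 libraries by less than 2-fold. Only 2 barcodes occurred in both libraries, and none was a neutrophil.

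S100a8 and S100a9 encode the paired subunits of calprotectin, the main cytosolic protein of neutrophils. Their genes lie in opposite orientation on mouse chromosome 3 (GRCm38), S100a8 at chr3:90668978-90670035 on the plus strand and S100a9 at chr3:90692632-90695721 on the minus strand, with 22596 bases between them. Il1b, the gene of interleukin-1β, lies at chr2:129364570-129371139 on the minus strand. Stretches before the 3 RefSeq starts (GRCm38.p6) are shown, which end at the start for S100a9 and Il1b and 12 bases short of it for S100a8, because S100a8 and S100a9 moved together from cell to cell, while Il1b did not move with them. GENCODE places the start of S100a8 earlier than RefSeq does, so the S100a8 stretch lies inside the gene span given above. Capitals mark the TATA box letters TATAAA and the C/EBP core letters TTNNGNAA, searched on both strands, which do not overlap here. C/EBP factors are the classical regulators of granulocyte genes.
S100a8, 30 bases at chr3:90669029-90669058: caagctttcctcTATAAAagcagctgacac
S100a9, 150 bases at chr3:90695722-90695871: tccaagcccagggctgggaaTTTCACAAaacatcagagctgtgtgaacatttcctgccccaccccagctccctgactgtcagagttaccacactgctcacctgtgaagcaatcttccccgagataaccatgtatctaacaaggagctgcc
Il1b, 150 bases at chr2:129371140-129371289: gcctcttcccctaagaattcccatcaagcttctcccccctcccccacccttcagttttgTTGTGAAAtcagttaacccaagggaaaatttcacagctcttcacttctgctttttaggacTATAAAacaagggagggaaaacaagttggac
The TATA box began 30 bases before the start of S100a8 and 31 before that of Il1b. Among all 32851 RefSeq windows of 150 bases before a start, 7.57% held TATAAA and 22.7% the C/EBP letters. Of the 12 leading neutrophil genes described below that had a window, 4 held the C/EBP letters (Mmp8, S100a8, S100a9 and Stfa2l1), and 1, S100a8, held the TATA box. The C/EBP match of S100a8 is not within the 30 bases shown.

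The values that chose the cells spread widely. S100a8 and S100a9 together ran from 12 to 1024 UMIs per WT cell with a median of 422, and from 14 to 1586 per mgR cell with a median of 164. At least 200 UMIs were found in 13 of 17 WT and 15 of 38 mgR cells, and fewer than 50 in 1 and 6. As a share of the cell's UMIs the pair had a median of 18.4% in WT and 7.87% in mgR, and the libraries overlapped over most of that range. Retnlg, a resistin-like secreted protein of granulocytes, reached at least 65 UMIs in 8 of 17 WT and 5 of 38 mgR cells and was at 0 in 1 and 6. C1q UMIs were 0 in every WT cell and at most 2 in an mgR cell.

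**Figure D1:**
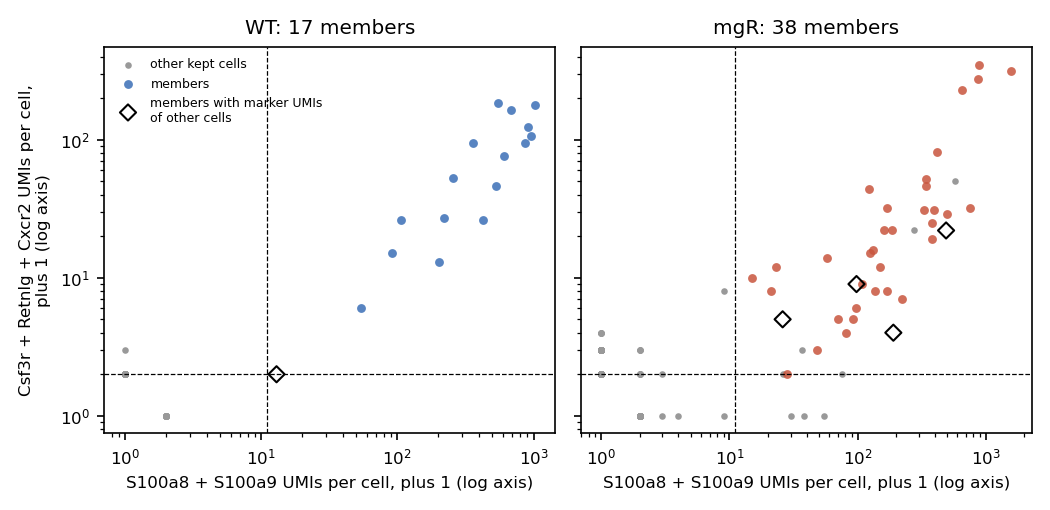
UMIs of S100a8 and S100a9 (x axis) against UMIs of Csf3r, Retnlg and Cxcr2 (y axis) in each kept cell with any of them, both as UMIs plus 1 on log axes, for the WT and the mgR library. Dashed lines are the limits of 10 and 1 UMIs, and coloured points are the 17 WT and 38 mgR neutrophils. Diamonds are the 5 of these with at least 5 UMIs of Dcn, Pecam1, Hbb-bs or Cybb. Grey points past both limits were left out for their C1q UMIs.

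Outside the rule, no other WT cell had as many as 2 UMIs of S100a8 and S100a9. In mgR 13 other cells had at least 2 and 8 had at least 10, and all 8 had at least 6 C1q UMIs. Of those, 3 (with 29, 37 and 54 UMIs of the pair) also had 0 UMIs of Csf3r, Retnlg and Cxcr2. The highest of the 8 had 575 and 272 UMIs of S100a8 and S100a9 beside 159 and 166 of C1q. The other 6 had 25 to 74 UMIs of the pair, 6 to 12 of C1q, 43 to 106 of Lyz2 (lysozyme) and 36 to 111 of Cxcl2. Just inside the limit were 1 WT cell with 12 UMIs and 1 of Csf3r, and mgR cells with 14, 20, 22, 25 and 27 UMIs. An mgR cell just outside had 8 UMIs together with 5 of Csf3r. As a measure of free RNA, 1.63% of other WT and 1.85% of other mgR cells had any UMI of the pair, as did 1.33% and 1.93% of fibroblast barcodes with medians of 5920.5 and 7394.5 UMIs.

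Of the chosen barcodes, 5 (1 WT and 4 mgR) also carried at least 5 UMIs of Dcn, Pecam1, Hbb-bs or Cybb. They are called mixed barcodes here, and this limit was set after the values were seen. The WT barcode had 12 UMIs of S100a8, 0 of S100a9, 21 of Cybb and 7 of Csf1r, the receptor of monocytes and macrophages. In mgR, 1 had 3669 UMIs of the haemoglobin gene Hbb-bs among 8374, and 1 of 17770 UMIs had 29 of the fibroblast gene Dcn, 40 of the endothelial gene Pecam1 and 183 of Klf4. The other two had 51 and 34 UMIs of Dcn. They held 9.97% of the neutrophil UMIs of WT and 35.2% of those of mgR. Counts over all compared genes are therefore given with all 55 cells and with the 50 that remained, 16 WT and 34 mgR. Many levels, ratios and list counts below are given for the 50 cells only. The doublet caller Scrublet marked 0 WT and 1 mgR neutrophils.

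Markers of other lineages were mixed in the 50 cells. All 7 T and NK cell and all 5 melanocyte markers had 0 UMIs in both libraries. The 6 fibroblast markers summed to 0 UMIs in WT and 5 in mgR, against 130 in all mgR neutrophils, and the 6 endothelial markers to 0 and 0, against 73. Dcn alone gave 117 of the 130. Dcn and Pecam1 helped define the mixed barcodes, and the rule capped C1qa, C1qb, C1qc, Col1a2 and Col3a1. The fibroblast, endothelial and macrophage sums were therefore held down by the choice of cells. The 10 macrophage markers summed to 322 CPM in WT and 679 CPM in mgR, with at most 3 and 6 UMIs in a cell, against 19155 and 23756 CPM in the other kept cells. Csf1r had 4 and 8 UMIs and Ccr2, the receptor of inflammatory monocytes, 0 and 0. Some lists were not far below the other kept cells in at least 1 library. Monocyte markers summed to 372 CPM in WT and 177 CPM in mgR, against 651 and 1056 CPM, mostly from Ly6c2, with 11 UMIs in 3 WT cells and 9 in 4 mgR cells. Mural cell markers summed to 74.4 and 162 CPM, against 73.2 and 61.5 CPM, all from Acta2, with 3 UMIs in 2 WT cells and 11 in 10 mgR cells. B cell markers summed to 99.2 and 14.8 CPM, against 58 and 127 CPM, all from Ighm. Mast cell and basophil markers summed to 0 and 73.8 CPM, against 61.3 and 29.7 CPM, with 5 UMIs in mgR. The part of these UMIs in the results was not tested.

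All 20 listed neutrophil identity markers had UMIs in mgR, and 19 in WT. Of the 15 not used by the rule and named as markers, Msrb1, a methionine sulfoxide reductase, and Clec4d, a C-type lectin receptor for fungal and mycobacterial glycolipids, had UMIs in 17 of 17 WT and 38 of 38 mgR cells. Hdc, the enzyme that makes histamine, was in 16 and 34 cells, Slpi, an inhibitor of neutrophil elastase, in 15 and 34, and Mmp9, gelatinase B, in 14 and 31. Ly6g, the surface antigen used to sort mouse neutrophils, was thin, with 10 UMIs in 3 WT cells and 19 in 7 mgR cells. Cd177, a surface protein of a subset of neutrophils, had 0 UMIs in WT and 5 in 3 mgR cells, and G0s2 was in 5 of 17 WT and 23 of 38 mgR cells. The label held by most of these markers in both libraries, and not by Ly6g or Cd177, which few cells carried.

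The 15 leading genes were Retnlg, Wfdc21, S100a8, S100a9, Asprv1, Mmp8, Cxcr2, Stfa2l1, Cstdc4, Il1f9, Mmp9, Lcn2, Hp, Hdc and Ifitm1, ranked by the lower of the WT and mgR CPM ratios to all other kept cells. That ratio was 6495 for Retnlg, 4319 for Wfdc21, 2390 for S100a8, 1360 for Cxcr2 and 206 for Ifitm1, the lowest of the 15. A sum under 3 UMIs in the other cells was set to 3, so ratios for genes nearly at 0 there depend on that floor. Since the cells were chosen on this same readout, these ratios are a description. Stfa2l1 and Cstdc4 belong to a cluster of near-identical stefin genes on chromosome 16, and their counts are uncertain where reads could be split between copies.

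RNA content was low throughout. Neutrophils had medians of 840 genes in WT and 754 in mgR, against 1890 and 2362 in other kept cells. Mitochondrial UMIs were a median of 0.343% and 0.137%, against 2.52% and 1.67%, and ribosomal protein genes 3.09% and 4.24%, against 13.5% and 13.8%. The ranges over the 50 cells without the mixed barcodes were 0.0729% to 0.835% mitochondrial in WT and 0 to 0.458% in mgR, below the median of the other cells in every cell.

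Genes of the first granules were absent or nearly so at this depth. The primary granule genes Mpo (myeloperoxidase), Elane (elastase) and Ctsg (cathepsin G) had 0 UMIs in both libraries, and Prtn3 (proteinase 3) had 1 in WT. The same list also held Ms4a3 and Prg2, both at 0 UMIs, of which Prg2 is an eosinophil marker here as well. Taking 3 UMIs as the limit that a count of 0 allows, 0 UMIs allow up to 67 CPM in WT and 28.7 CPM in mgR. Among secondary granule genes, Ltf (lactoferrin), Camp (cathelicidin) and Chil3 were also at 0. Ngp (neutrophilic granule protein) had 3 UMIs in WT and 13 in mgR, of which 84.6% lay in 1 cell. Lcn2, the iron-siderophore binding lipocalin of secondary granules, had UMIs in 14 of 17 and 21 of 38 cells. Mmp9, of the gelatinase granules that are filled after the secondary ones, had UMIs in 14 and 31 cells. Mmp8 (collagenase) and Hp (haptoglobin), proteins of secondary granules that were placed on the gelatinase granule list here, were in 12 and 21 and in 14 and 33 cells. Of 21 cell cycle genes, 15 had 0 UMIs in both libraries, Mki67 and Top2a among them.

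Chemoattractant receptors included Cxcr2, the receptor for CXCL1, CXCL2 and CXCL5, which was used by the rule. It had 49 UMIs in 15 WT cells and 107 in 33 mgR cells, at 1215 CPM and 1432 CPM in the 50 cells, against 0.656 and 1.13 CPM in C1q macrophages. Since Cxcr2 helped choose the cells, this contrast is a description. Cxcr4, which holds neutrophils in marrow and rises as they age, was at 546 and 694 CPM in the 50 cells. Over all 55 cells Cxcr4 was at 648 CPM in WT and 507 CPM in mgR, the other direction. Ccr1, C5ar1 (complement C5a) and Ptafr (platelet-activating factor) were in 14, 14 and 13 of 17 WT cells and 28, 21 and 29 of 38 mgR cells. Fpr1 and Fpr2, receptors for formyl peptides of bacteria and mitochondria, had 11 and 15 UMIs in WT and 15 and 14 in mgR. Cxcr3 was at 0 and Cxcr1 at 2 and 0 UMIs.

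Growth factor receptors were led by Csf3r, the G-CSF receptor, with 1 to 9 UMIs and a median of 3.5 per WT cell and 0 to 7 with a median of 3 per mgR cell in the 50 cells. Csf3r was used by the rule, so its place is a description. Il1r2, a decoy receptor that traps interleukin-1, was at 670 and 1151 CPM. The TGF-β receptors Tgfbr1 and Tgfbr2 had 3 and 3 UMIs in WT and 12 and 6 in mgR, and Tgfb1 had 7 and 13.

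The adhesion genes included those of the β2 integrins of leukocytes. Itgb2, the β2 chain, was at 546 CPM in both WT and mgR in the 50 cells, and its partners Itgam and Itgal at 570 and 372 CPM in WT and 502 and 280.5 CPM in mgR. Selplg (the P-selectin ligand) and Cd44 were in 13 and 17 WT cells and 28 and 34 mgR cells. Itgb1, the β1 chain that pairs with fibronectin-binding α chains and was targeted in the study, had 2 UMIs in WT and 2 in mgR in the 50 cells, at 49.6 and 29.5 CPM against 440 and 447 CPM in C1q macrophages. The 31 Itgb1 UMIs of all mgR neutrophils lay mostly in 1 mixed barcode, which held 83.9%. Itga5 had 1 and 1 UMI, and Fn1, fibronectin, 0 and 0 in the 50 cells.

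**Figure D2:**
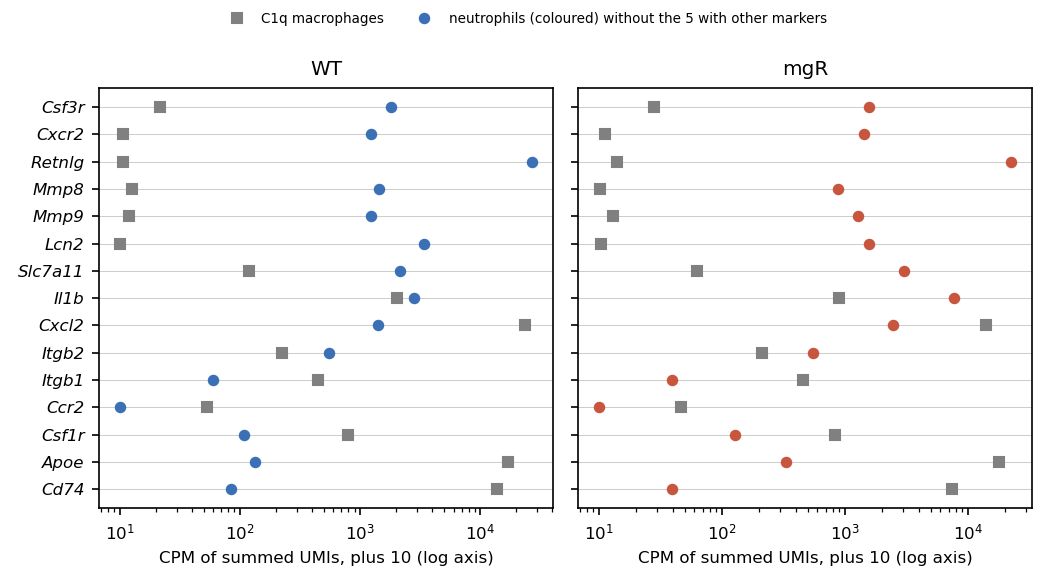
CPM of summed UMIs plus 10 (log axis) for 15 genes in the WT library (left) and the mgR library (right), with circles for the 16 WT and 34 mgR neutrophils without mixed barcodes and squares for C1q macrophages (at least 5 UMIs of C1qa, C1qb and C1qc, 243 WT and 1605 mgR cells). Cxcr2, Retnlg, Mmp8, Mmp9 and Lcn2 sit far to the right in neutrophils and near 10, which stands for 0 CPM, in macrophages. Itgb1, Csf1r, Apoe and Cd74 sit further to the right in macrophages than in neutrophils. Csf3r, Cxcr2 and Retnlg were used to choose the neutrophils.

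Interleukin-1β dominated the cytokines. Il1b had UMIs in 17 of 17 WT and 36 of 38 mgR neutrophils, against 2.21% and 3.03% of fibroblast barcodes. Il1rn, the interleukin-1 receptor antagonist, was in 8 and 20 cells, and Il1f9 (interleukin-36γ) had 15 and 46 UMIs. Il1a, Il6, Il10 and Il12a had 0 UMIs in both. Among chemokines, Cxcl2 had UMIs in 8 of 17 and 23 of 38 cells and Ccl6 in 14 and 33, while Cxcl1, Cxcl3, Cxcl5 and Ccl5 had 0. In C1q macrophages Cxcl1 was at 1413 CPM in WT and 1057 CPM in mgR, and Cxcl2, which binds Cxcr2, at 23498 and 14227 CPM, against 1414 and 2451 CPM in the 50 neutrophils.

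The NADPH oxidase genes Ncf4, Ncf1, Cyba and Rac2 had UMIs in 9, 7, 11 and 15 WT cells and 16, 20, 30 and 32 mgR cells. Cybb, the catalytic chain, had 0 UMIs in WT and 8 in mgR in the 50 cells, a count held down by its use in defining mixed barcodes. Slc7a11, the cystine importer that feeds glutathione synthesis, was at 2158 and 3011 CPM, against 109 and 52.5 CPM in C1q macrophages, with UMIs in 17 of 17 and 34 of 38 cells. Of the genes tied to extracellular traps, Padi4, which citrullinates histones, had 8 UMIs in WT and 10 in mgR.

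Survival genes were led by Mcl1. Mcl1, the short-lived protein on which neutrophil survival rests, was in 17 of 17 and 37 of 38 cells, while Bcl2 and Ripk3 had 0 UMIs. Of 22 interferon-stimulated genes, Ifitm1, Ifitm2, Ifitm3 and Slfn2 carried most UMIs (149, 157, 97 and 52 in WT, and 177, 293, 128 and 125 in mgR). Ifit1, Ifit2 and Ifit3 had 0 UMIs in WT and 1, 1 and 0 in mgR. Siglecf, a marker of long-lived tissue neutrophils, was at 0 in both.

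The mTOR pathway was thinly sampled. Mtor had 0 UMIs in WT and 3 in mgR, and of 20 pathway components 4 reached the 20 UMIs over both libraries needed to compare them, Eif4ebp1, Rheb and Rps6 among them. Rheb and Rps6 were past 2-fold higher in mgR with all cells, and at 3 against 13 and 3 against 15 UMIs without the mixed barcodes. Of the 24 mTORC1-responsive genes 3 were compared, and none was past 2-fold.

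The first comparison asks whether neutrophils were a larger part of the mgR than of the WT valve. Their share was 1.94% of kept cells in WT (17 of 875; 1.14 to 3.09%, Clopper-Pearson) and 1.11% in mgR (38 of 3438; 0.783 to 1.51%). The difference, mgR minus WT, was -0.838 percentage points, with a counting interval from -2.03 to 0.0671 that includes 0. Among cells with a UMI of the leukocyte gene Ptprc the shares were 4.53% (17 of 375) and 2.05% (38 of 1850), a difference of -2.48 points (-5.17 to -0.462), and every neutrophil had a Ptprc UMI. The 2 denominators differ in whether that interval includes 0, and what the rest of the suspension held sets both shares.

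The second comparison asks which RNAs of the neutrophils differed in level. UMIs were summed over the neutrophils of a library, expressed as CPM and divided, mgR by WT, for genes with at least 20 UMIs over both. Of 1069 genes in all 55 cells, 150 (14%) were at least 2-fold higher in mgR and 94 (8.79%) at least 2-fold lower, around a median log2 ratio of -0.02. In the 50 cells, 774 genes gave 73 (9.43%) higher and 37 (4.78%) lower, around 0.11. Only 37 of the 150 and 28 of the 94 were past 2-fold in the same direction in the 50 cells, where 49 and 74 of them still had enough UMIs.

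The leading genes were mostly lower in mgR. With all cells 5 of the 15 were past 2-fold lower and 1 higher, and in the 50 cells 2 were lower and 1 higher, with median log2 ratios of -0.73 and -0.33. Over all compared genes 8.79% were lower and 14% higher with all cells, and 4.78% and 9.43% in the 50 cells. Retnlg, S100a8, S100a9 and Cxcr2, which the rule used, are counted among the 15. Wfdc21, a whey acidic protein family member secreted by neutrophils, had 0 to 21 UMIs and a median of 7 per WT cell and 0 to 23 with a median of 1 per mgR cell. Its ratio was 0.428 (0.324 to 0.564) in the 50 cells. Lcn2 had 0 to 38 UMIs and a median of 4 per WT cell and 0 to 25 with a median of 1 per mgR cell, at 3373 and 1565 CPM and a ratio of 0.464 (0.356 to 0.602). The highest cells of both libraries overlapped for these genes, and the libraries differed in how many cells were low.

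S100a8 had 20 to 413 UMIs per WT cell with a median of 216, and 6 to 560 per mgR cell with a median of 55, in the 50 cells. Its ratio was 0.660 (0.629 to 0.692), and that of S100a9 0.827 (0.796 to 0.860). For Retnlg the per-cell UMIs were 2 to 173 with a median of 54 in WT and 0 to 343 with a median of 10.5 in mgR, a ratio of 0.837 (0.774 to 0.905). Those 3 genes were used by the rule, which fixed only a minimum. Mmp8 was at 0.605 (0.414 to 0.885), while Mmp9, Hp and Cxcr2 had ratios of 1.06, 1.18 and 1.18 with intervals that include 1. Cstdc4 ran the other way, at 3.26 (1.99 to 5.63), from 4 WT and 8 mgR cells with 36.2% of the mgR UMIs in 1 cell.

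**Figure D3:**
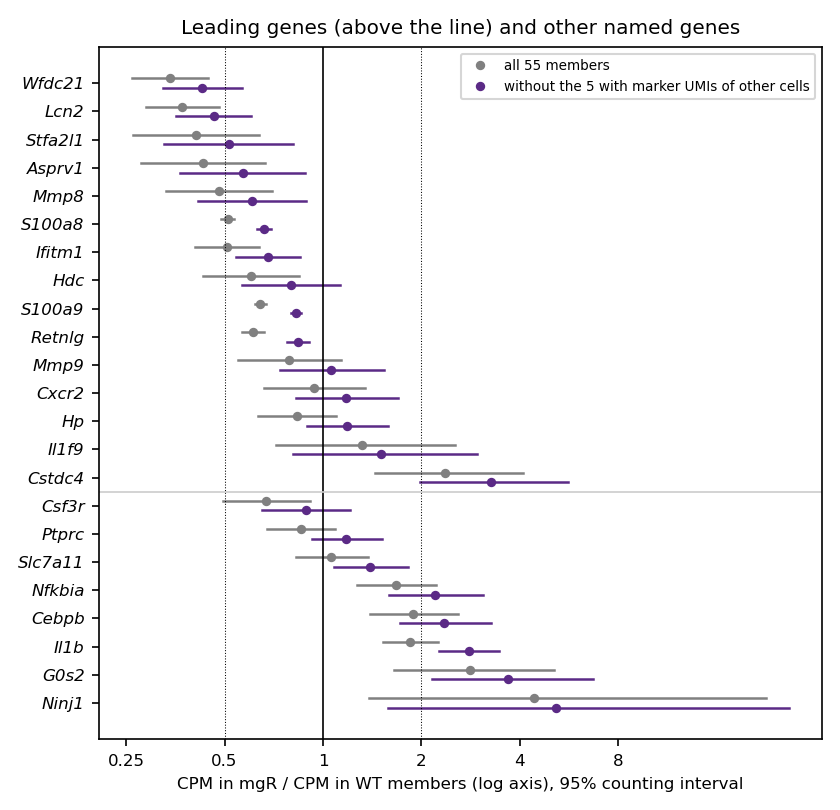
CPM in mgR divided by CPM in WT neutrophils (log axis) for the 15 leading genes, above the grey line, and 8 other named genes, below it, with 95% counting intervals. Grey is all 55 cells and purple the 50 without mixed barcodes, the solid line marks 1 and dotted lines 0.5 and 2. Wfdc21 and Lcn2 lie left of 0.5 in both, and Il1b moves from 1.85 to 2.79.

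Il1b was higher in mgR neutrophils. It had 1 to 18 UMIs per WT cell with a median of 4.5 and 0 to 46 per mgR cell with a median of 12.5 in the 50 cells, at 2803 and 7809 CPM. The ratio was 2.79 (2.27 to 3.44), and 1.85 (1.53 to 2.25) with the mixed barcodes, which is short of 2-fold. As a share of the cell's UMIs the median was 0.195% in WT and 0.665% in mgR, and 8.07% of mgR UMIs lay in the top cell. In C1q macrophages of the same libraries Il1b was at 2007 CPM in WT and 893 CPM in mgR, lower in mgR. The difference between these ratios was not tested, having 1 library each.

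Genes of several other lists were also past 2-fold higher in the 50 cells. G0s2, an inhibitor of fat breakdown abundant in neutrophils, had UMIs in 5 of 16 WT and 20 of 34 mgR cells, at 397 and 1461 CPM and a ratio of 3.68 (2.16 to 6.69). Cebpb, a transcription factor of inflammatory granulocytes, had medians of 3 and 4 UMIs per cell and a ratio of 2.35 (1.72 to 3.26). Nlrp3, the inflammasome sensor upstream of interleukin-1β release, had 11 and 42 UMIs, a ratio of 2.27 (1.15 to 4.89). Nfkbia, the NF-κB inhibitor that NF-κB itself induces, was at 1215 and 2672 CPM, 2.20 (1.60 to 3.08), and Gadd45b at 198 and 812 CPM, 4.09 (1.94 to 9.95). With all 55 cells Cebpb was at 1.88, and Nfkbia and Nlrp3 were also under 2-fold. Nfkbia had UMIs in 11 of 16 WT and 21 of 34 mgR cells, so a similar part of each library. Free RNA of such widely expressed genes was not separated here: fibroblast barcodes held Nfkbia at 977 and 1165 CPM and Il1b at 3.68 and 36.1 CPM.

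**Figure D4:**
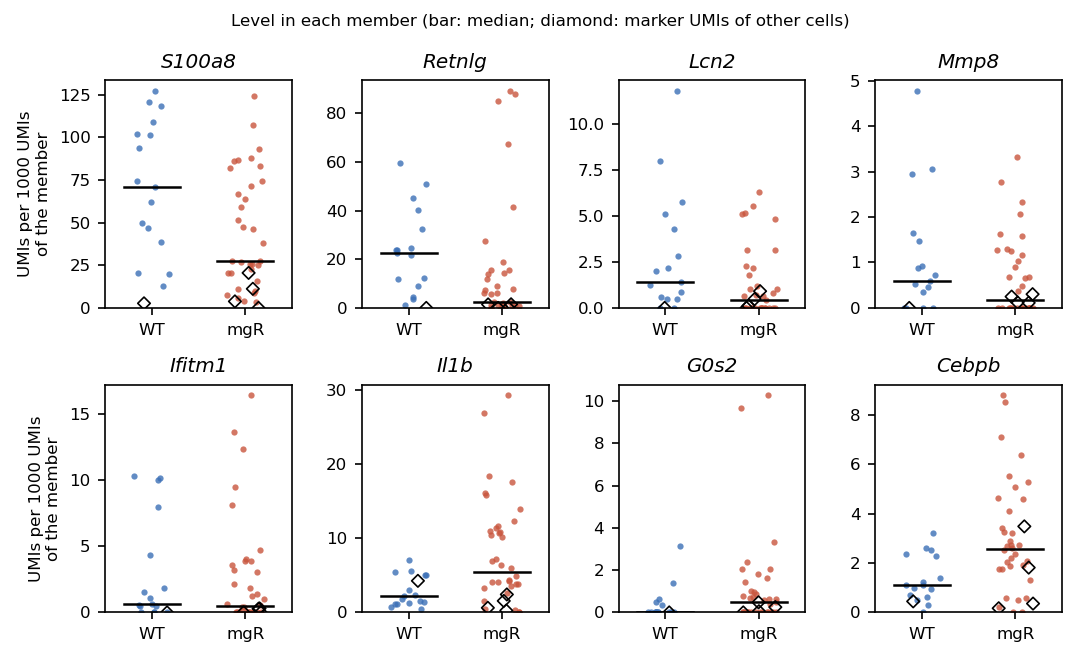
UMIs per 1000 UMIs of the cell (y axis) for 8 genes in each of the 17 WT and 38 mgR neutrophils, with bars at medians and diamonds for mixed barcodes. S100a8, Retnlg, Lcn2 and Mmp8 have the higher median in WT, Il1b and Cebpb in mgR, and the libraries overlap for every gene.

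By list, the NF-κB regulators and targets stood highest in the 50 cells. Of the 18, 6 could be compared, 3 were past 2-fold higher and 1 lower, with a median log2 ratio of 0.85. Over all genes compared there, 9.43% were past 2-fold higher and 4.78% lower, with a median of 0.11. The 3 were Nfkbia, Nfkbiz (2 and 24 UMIs) and Ier3 (9 and 36 UMIs), and the lower one was Plaur, the urokinase receptor (40 and 33 UMIs, ratio 0.491, 0.300 to 0.799). With all 55 cells that list had 7 compared, 1 higher (Ier3), 1 lower (Plaur) and a median of 0.16. Of all genes compared with the 55 cells, 14% were past 2-fold higher and 8.79% lower, with a median of -0.02. Ier3 is also on the dissociation stress list, of which 12 genes were compared in the 50 cells, 2 were higher (Dnaja1 and Ier3) and 1, Fos, lower (12 and 9 UMIs). That list had 6 of 16 past 2-fold higher with all 55 cells, where a mixed barcode held 72.6% of the mgR Fos and 67.4% of the Hsp90ab1 UMIs.

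The secondary granule list had the lowest median. In the 50 cells 3 of its genes were compared, all below 1, with 1 past 2-fold (Lcn2) and a median log2 ratio of -0.88. Of all genes compared in the 50 cells, 4.78% were past 2-fold lower and 9.43% higher, with a median of 0.11. Anxa1, annexin A1, which limits neutrophil adhesion, was at 0.543 (0.378 to 0.777), and Lyz2 at 0.891 with an interval that includes 1. The gelatinase granule list had 0 of 8 past 2-fold and a median of -0.22, and the identity markers 1 of 19 higher (G0s2) and 3 lower (Wfdc21, Wfdc17 and Lcn2) with a median of -0.18. Wfdc17, another whey acidic protein gene, was at 4638 and 2037 CPM, 0.439 (0.350 to 0.55).

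The receptor and effector lists are read against the 9.43% higher and 4.78% lower over all genes compared in the 50 cells, and nothing is called particular to a list of so few compared genes. Among these lists, chemoattractant receptors had 0 of 7 past 2-fold, adhesion molecules 0 of 7, NADPH oxidase genes 0 of 6, interferon-stimulated genes 0 of 8, glycolysis and hypoxia genes 0 of 7 and mTOR components 0 of 2. Growth factor receptors had 1 of 10 higher (Csf2rb, 5 and 22 UMIs) and pattern recognition receptors 1 of 10 higher (Nlrp3). Ccl4, at 5 and 19 UMIs, was the 1 chemokine of 4 past 2-fold, and Hmgb2, a chromatin protein, the 1 of 2 trap genes, at 2.02 (1.28 to 3.30). With all 55 cells Csf2rb was at 1.64 and Ccl4 at 1.80, and no trap gene was past 2-fold. Il1b was the 1 of 5 cytokine and lipid mediator genes past 2-fold. Survival genes had 1 of 4 higher (Gadd45b), and tissue and ageing-associated genes 1 of 5 (Ninj1). Myeloid transcription factors had 1 of 12 higher (Cebpb) and 1 lower (Fos).

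Other list members were past 2-fold with all 55 cells and not without the mixed barcodes. Those higher in mgR were often carried by few cells. Klf4 had 3 UMIs in WT and 200 in mgR, of which 91.5% lay in 1 cell, and 1 and 3 UMIs remained in the 50 cells. Egr1 (5 and 29 UMIs), Fosb (7 and 61), Pecam1 (0 and 49), Ccrl2 (4 and 20), Ndrg1 (5 and 25) and Klf2 (13 and 104) had 4 and 0, 5 and 9, 0 and 0, 4 and 4, 5 and 8, and 13 and 30 UMIs in the 50 cells. Pecam1 helped define the mixed barcodes, so its low count in the 50 cells was held down by that choice. Tlr2, a receptor for bacterial lipoproteins, and Tnf were spread over more cells. Tlr2 kept 1 and 18 of 1 and 20 UMIs, and Tnf kept 1 and 18 of 4 and 27, both just under the 20 UMIs needed. Over all cells the Tlr2 ratio was 8.57 (1.37 to 355) without the floor of 3 UMIs, and its log2 ratio with the floor was 1.51. Those lower in mgR with all cells were Fpr2 (ratio 0.400), Tnfrsf1a (0.496), Bcl2l11 (0.450), Cflar (0.464), Slfn4 (0.476) and Cybb (0.184), of which the single WT mixed barcode held every WT UMI of Cybb.

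The 10 highest ratios over all 55 cells, by the rule for named genes, were of Ptma, Dynll1, Ago2, Ninj1, Rab11a, Ywhah, Smchd1, Chd4, Ncl and Smdt1. A mixed barcode held 69.7% of the mgR UMIs of Ptma, 67.4% of Dynll1 and 55.2% of Ywhah. The 50 cells are part of the 55 whose ratios picked these 10, so values in them are a description. Only 5 of the 10 had 20 UMIs in the 50 cells, and those 5 were past 2-fold. Ninj1, which ruptures the membrane of dying cells, had 3 and 26 UMIs there in 2 of 16 WT and 18 of 34 mgR cells, a ratio of 5.16 (1.58 to 26.6). Chd4, a chromatin remodeller, had 2 and 33 UMIs there, a ratio of 6.55 against a floor of 3 UMIs. Without the floor the Chd4 ratio was 9.82 (2.51 to 84.5). Smdt1, a part of the mitochondrial calcium uniporter, had 0 and 27 UMIs in all cells, a ratio of 3.86 against a floor of 3 UMIs.

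The 10 lowest were Ndufa3, AY036118, Pomp, Pag1, Tnfaip8l2, Arhgap45, Rin3, Ccnl2, Dusp6 and Abr. They too were picked by ratios over cells that include the 50, so values there are a description. Of the 10, 6 had 20 UMIs in the 50 cells, and all 6 were past 2-fold lower. AY036118, a noncoding transcript on chromosome 17, was also lower in the other cells of the mgR library, at 3217 CPM in WT and 667 CPM in mgR, against 2257 and 827 CPM in neutrophils. The others rested on 7 to 18 UMIs per library, among them Pomp, a proteasome assembly factor (16 and 2 UMIs in the 50 cells), and Dusp6, a phosphatase of ERK (14 and 9 UMIs).

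Within each library S100a8 and S100a9 moved together over the cells without mixed barcodes. Spearman's rho of their shares of a cell's UMIs was 0.94 over 16 WT and 0.93 over 34 mgR cells. Retnlg and the S100 pair gave 0.62 and 0.76, and Retnlg and Lcn2 0.44 and 0.46. Il1b against the S100 pair gave 0.13 and -0.37, and Il1b against Cebpb 0.12 and 0.12. The cells of a library share that library, and shares of one total push each other down, so these values are descriptions.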

How the data were processed

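Single-cell RNA-Seq of mitral valve leaflets was analysed in 2 libraries (WT and mgR). The authors deposited raw UMI counts per gene and barcode from Cell Ranger 7.1.0 with build mm10, per the submitters' processing notes; the annotation and the setting for intronic reads are not given in the sources used here. Filters were 200 to 5000 genes and at most 10% mitochondrial UMIs. Neutrophils met the rule given above. Their UMIs were summed per library and scaled to CPM. Sums under 3 UMIs were set to 3 before a ratio, except where a ratio without the floor is named. Intervals of ratios used the sums without that floor. Genes with at least 20 UMIs over both libraries were compared, without a test or p-value. Intervals were exact Poisson, Clopper-Pearson or conditional binomial at 95%, and that of the difference in share was built from both binomial limits. The ratio code was tested on simulated counts. Named genes were the 10 rule genes, the 15 leading genes (at least 200 CPM in both libraries), the 10 highest and 10 lowest ratios (UMIs in at least 25% of the cells of the higher library and at least 50% of the CPM of other cells, without mitochondrial, ribosomal, haemoglobin, predicted, sex-linked and rule genes), the most abundant and the past-2-fold members of 22 role lists, genes at 0 and 8 study genes. Genes past 2-fold only without the mixed barcodes were named after their values were seen. The neutrophil rule and the lists were chosen with earlier results of these data known. Values of some listed genes are not reported here. Of the listed genes, 3 matched no single symbol (Aldoa, Clec7a and Ddit3). Positions are from GENCODE on GRCm38, and sequences from RefSeq GRCm38.p6. Alternatives were other limits of the rule, Scrublet (scanpy 1.11.5), thinning to 1000 UMIs, other scalings and UMI minimums, and, chosen after seeing the data, removal of the mixed barcodes. Python 3.11.15 and scipy 1.17.1 were used.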

Additional observations from a re-analysis of the deposited data

How the results depend on the processing

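The difference in share stayed negative under the 10 alternatives. It was -2.48 points among cells with a Ptprc UMI and between -0.692 and -0.965 points under the others, and its interval also excluded 0 with at least 50 UMIs of S100a8 and S100a9 (-0.898, -2.06 to -0.0300). Genes at least 2-fold higher in mgR numbered 42 instead of 150 with at least 50 UMIs, 65 with C1q and collagen UMIs at 0, 73 without the mixed barcodes and 62 with scaling, in addition, without the rule genes and Malat1. Those at least 2-fold lower numbered 206 instead of 94 with at least 10 UMIs, 17 with at least 50, 37 without the mixed barcodes and 45 with that scaling in addition. The part of higher among past-2-fold genes was 61.5%, and 48.3% (127 higher, 136 lower) scaled without the rule genes and Malat1, 50% (206 and 206) with at least 10 UMIs, 71.2% with at least 50 UMIs and 47.8% (65 and 71) with C1q and collagen UMIs at 0. Of 177 genes, 8 turned direction under some alternative. As log2 ratios, Ccrl2 was at -0.54 without Scrublet-marked cells, -1.16 with at least 50 UMIs of S100a8 and S100a9, -0.75 without the mixed barcodes, -0.83 with the scaling in addition and -0.22 without its top cell. Cybb was at 0.67 and 0.59 without the mixed barcodes and with the scaling in addition, and Ndrg1 at -0.071 and -0.15. Egr1 was at -1.68 as a mean of per-cell CPM, -1.39 with C1q and collagen UMIs at 0, and -1.16 and -1.24 without the mixed barcodes. Fos was at -0.42, -0.45, -1.16 and -1.24 in that order. Fosb and Hsp90ab1 were at -0.46 and -0.13 with C1q and collagen UMIs at 0, and Itgb1 at -0.65 as a mean of per-cell CPM, -0.92 with C1q and collagen UMIs at 0 and -0.37 without its top cell. The cause was not tested beyond what each alternative removes. Itgb1, Klf4 and Pecam1 had at most 3 UMIs per library without the mixed barcodes, and no ratio is given. Il1b ran from 0.86 to 1.48, Lcn2 from -1.47 to -1.11, Wfdc21 from -1.75 to -1.23 and G0s2 from 1.48 to 1.88. Leaving out a replicate was not run, with 1 library per genotype. No paired analysis was possible because each genotype had 1 library and no test was made. With 17 and 38 cells, depth limits every gene of few UMIs.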

Other observations

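The remaining marker lists had these values over all 55 neutrophils. Monocyte markers (7) summed to 24 UMIs in WT and 16 in mgR, dendritic cell markers (8) to 3 and 4, B cell markers (5) to 4 and 1, mast cell and basophil markers (7) to 0 and 13, eosinophil markers (6) to 2 and 0, mural cell markers (5) to 3 and 11 and platelet markers (5) to 0 and 1. Red cell markers (5) summed to 27 UMIs in WT and 6158 in mgR, and to 26 and 16 without the mixed barcodes, which Hbb-bs helped define. The mast cell and basophil UMIs of mgR were 124 CPM, against 29.7 CPM in other kept cells. The eosinophil UMIs of WT were 44.7 CPM, against 12.6 CPM, and 0 without the mixed barcodes.

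Mrgpra2b, a Mas-related receptor, had 0 UMIs in the other kept cells of both libraries and 3 UMIs in 3 WT and 18 in 12 mgR neutrophils. It was chosen after its values were seen.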
